A study of Mus musculus with 415 samples.

Results

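Of the 23180 genomic regions in a single-cell chromatin accessibility table of retinoic acid-treated mouse cells, 12 overlap the windows around the cadherin genes Cdh1 and Cdh2. The Cdh1 window, chr8:109110000-109210000, held 3 regions, and the Cdh2 window, chr18:16730000-17000000, held 9. Regions were taken by position alone, on the mouse build mm9. They are numbered here by position within each window. The loci were proposed with earlier results from the same cells in view, so every value below is a description and none carries a test.

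Cdh1 encodes E-cadherin and Cdh2 encodes N-cadherin. Both are transmembrane proteins that bind their own kind on a neighbouring cell in the presence of calcium and anchor the contact to the actin cytoskeleton through catenins. E-cadherin holds together embryonic stem cells, the early embryonic epithelium and most later epithelia, including endoderm. N-cadherin is the main classical cadherin of the neural plate and of much of the mesoderm, and its rise with the loss of E-cadherin is a known feature of cells that leave the early epithelium.

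The cells were R1 mouse embryonic stem cells, first aggregated in hanging drops for 48 hours to form embryoid bodies. Differentiation medium with retinoic acid followed for 4 days, at a dose the labels give as 0.5 mM. Each sample was 1 cell, captured and tagmented with the transposase Tn5 on a Fluidigm C1 chip. There was no untreated group, no earlier time point and no named separate culture, so the series counts as 1 sample and cells are not its replicates. Whether the cells came from 1 culture or several is not stated. They therefore show how the cadherin loci varied among the cells of this series, not how the loci responded to retinoic acid.

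Open means that the deposited signal of a region in a cell was above 0. Signal divided by the bases of 1 read pair gives fragments. Cells held from 756 to 12267 open regions, with a median of 3928, and from 791 to 25069 fragments, with a median of 4529. Shallow cells miss many regions by sampling alone, so observed numbers are set beside the number expected from the overall frequency of the region and the depth of each cell. Exact (Clopper-Pearson) 95% intervals of shares and exact Poisson intervals of cell counts cover counting error only. PCR copies of 1 molecule cannot be told apart in the table. No pair of cells held identical values.

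Each of the 3 Cdh1 regions was open in a minority of cells. Cdh1 region 1, chr8:109112492-109113038, was open in 36 cells (8.67% of all cells, interval 6.15% to 11.8%). Cdh1 region 2, chr8:109127064-109127650, was open in 45 cells (10.8%, interval 8.02% to 14.2%). Both shares were below the median region of the table, which was open in 14.5% of cells, and 14.1% and 31.7% of all regions had a lower share than region 1 and region 2. Cdh1 region 3, chr8:109206926-109207710, was open in 71 cells (17.1%, interval 13.6% to 21.1%), above the table's median. It lies 79276 bp beyond region 2, in the last stretch of the window. On the GRCm38 gene table, used here for the order of genes only, the protein-coding neighbours of Cdh1 are Cdh3, which encodes P-cadherin, and Tango6. No gene annotation on mm9 was used here, so which of the 3 regions holds the start of Cdh1, and whether region 3 belongs to Cdh1 or to a neighbour, was not determined.

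The Cdh2 window held 1 wide and widely open region among 8 narrower ones. Cdh2 region 9, chr18:16966329-16968353, spanned 2024 bp and was open in 37.8% of cells (interval 33.1% to 42.7%). Its share exceeded that of 92.6% of all regions and its width that of 98.8%. When it was open it held more than 1 fragment in 62 cells, or 39.5% of them, where 29.5% of open values over the whole table did. It also held the highest value of the 12 regions, 5.24 fragments in 1 cell.

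Cdh2 region 3, chr18:16833715-16834100, came next with 65 cells (15.7%, interval 12.3% to 19.5%), although it is the narrowest of the 12. Cdh2 region 1, chr18:16806495-16807801, was open in 41 cells (9.88%, interval 7.18% to 13.2%). The other 6 Cdh2 regions were open in 32 to 38 cells, and no region of the table was open in fewer than 31. The intervals of these 6 overlap each other and that of region 1, so their order is not established. Cdh2 region 8 lies 635 bp from region 9 and was open in 8.43% of cells, with 37.8% at its wide neighbour.

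**Figure D1:**
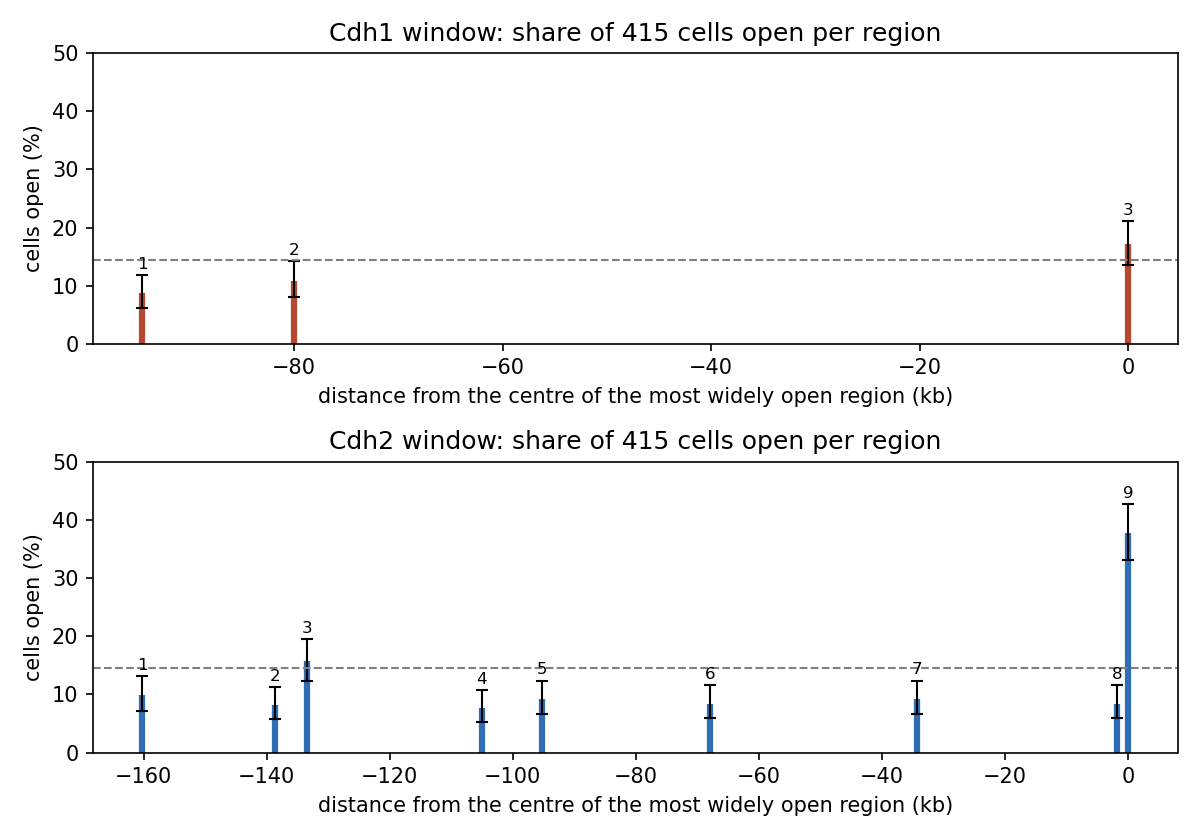
Share of all cells in which each region was open (vertical axis, percent; bars with exact 95% intervals), by distance in kilobases from the centre of the most widely open region of its window. Numbers name the regions and the dashed line is the table's median of 14.5%. Cdh2 region 9 stands at 37.8%, and only Cdh1 region 3 and Cdh2 regions 3 and 9 lie above the line.

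When each chromosome was divided from its first region onward into bins of the same size, 11.1% of the 100 kb bins held at least 3 regions and 4.71% of the 270 kb bins held at least 9. The signal over the 9 Cdh2 regions was 0.0249% of all signal, and that over the 3 Cdh1 regions was 0.00733%. The nearest regions outside the windows were open in 36 cells beyond the Cdh1 window, 41128 bp from its edge, and in 34 cells before the Cdh2 window, 9449 bp from its edge. Inside the windows, the outermost regions lay 2492 and 2290 bp from the edges at Cdh1 and 76495 and 31647 bp from them at Cdh2.

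Counted per cell, at least 1 Cdh1 region was open in 31.1% of cells (interval 26.7% to 35.8%) and at least 1 Cdh2 region in 62.2% (interval 57.3% to 66.9%). The number of open Cdh1 regions ran from 0 to 3 per cell with a median of 0, and that of open Cdh2 regions from 0 to 7 with a median of 1. These shares rise with depth. Among cells no shallower than the median cell they were 41.3% for Cdh1 and 77.9% for Cdh2. After each cell had been thinned at random to 1500 open regions, with 33 shallower cells left out, they were 11.5% and 32.2%. Cdh2 has 3 times as many regions in its window, so the difference between the loci is not a difference per region. The median region share was 9.16% at Cdh2 and 10.8% at Cdh1.

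The loci were then compared over groups of cells defined without them. All cells but 1, which had under 1000 fragments, were grouped into 3 clusters on the odd-numbered autosomes, which carry neither cadherin gene. Cluster 1 held 49.3% of these cells, cluster 2 held 25.8% and cluster 3 held 24.9%. Their median cells had 3467, 4994 and 3715 open regions, so cluster 2 was the deepest. The table names no genes and the clusters stay numbered. The labelled cell type was not checked against marker genes for the same reason. Calls of higher or lower in a cluster needed a depth-scaled share at least 2-fold away from that of the other clustered cells, with exact intervals, scaled in the same way, that did not overlap. The same rule was applied to all 10818 regions outside the odd-numbered autosomes.

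Cluster 3 held most of the open cells at Cdh1 region 1 and was low at 5 of the 9 Cdh2 regions. Cluster 2 held most of the open cells at 4 Cdh2 regions. Cluster 1 was low at Cdh1 region 1 and at Cdh2 region 2. The patterns are shown in the plot of depth-scaled openness by cluster.

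In cluster 3, 2 of the 3 Cdh1 regions were called higher, where 9.06% of the regions outside the odd-numbered autosomes were. The 2 became 1 with more than 1 fragment required and 1 after thinning. Cdh1 region 1 was open in 28 cells of cluster 3 (27.2% of that cluster) and in 8 other cells (2.57%), a depth-scaled ratio of 11.3. Of its 36 open cells, cluster 1 and cluster 2 each held 4. No region of the table was open in fewer than 31 cells. Cdh1 regions 1 and 2, with 8 and 22 open cells elsewhere, reach that number only through cluster 3, so their ratios are a description. Region 1 was accordingly called lower in cluster 1, at 1.96% of cells and a ratio of 0.165, and lower in cluster 2, at 3.74% and a ratio of 0.250. Such lower calls were made for 7.11% of the background regions in cluster 1 and 4.29% in cluster 2. None of the 12 regions was called higher in cluster 1, where 4.42% of the background regions were.

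Cdh1 region 2 was open in 23 cluster 3 cells (22.3%) and 22 other cells (7.07%), a ratio of 3.37. Cdh1 region 3 did not follow the other regions of its window. It was open in 17 cluster 3 cells (16.5%) and 54 other cells (17.4%), a ratio of 1.01, and was called in no cluster. Thinned to 1500 open regions, region 1 was open in 14 cluster 3 cells (13.9%) and 3 other cells (1.07%). Region 2 was then open in 5 cells of cluster 3 and 5 other cells, too few to compare.

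At Cdh2, 4 of 9 regions were called higher in cluster 2, where 8.21% of the background regions were. The 4 became 1 with more than 1 fragment required and 1 after thinning, both of which leave fewer open cells. Cdh2 region 2, chr18:16828530-16828957, was open in 31 cells of cluster 2 (28.97%) and in 3 other cells (0.977%). Its depth-scaled ratio of 20.6 was the highest among all 10818 regions for cluster 2, and this region was known from earlier work on these cells to stand out. The other 3 were regions 4, 5 and 7. Region 5 was open in 25.2% of cluster 2 and 3.58% of other cells, a ratio of 4.91. Region 4 was open in 19.6% of cluster 2 and 3.58% of other cells, a ratio of 3.80, and region 7 in 22.4% and 4.56%, a ratio of 3.43. No region of the table was open in fewer than 31 cells. Outside cluster 2, regions 2, 4, 5 and 7 were open in 3, 11, 11 and 14 cells. They reach 31 only through cluster 2, so their ratios and the rank of region 2 are a description. Regions 3 and 8 had ratios of 1.98 and 1.89 and were not called there. Region 2 was also the only Cdh2 region called lower in cluster 1, where it was open in 2 cells, with 32 in the other clusters.

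In cluster 3, 5 of the 9 Cdh2 regions were called lower, where 12.1% of the background regions were. The 5 became 1 with more than 1 fragment required and 2 after thinning. The 5 were regions 2, 3, 4, 5 and 7. Regions 2, 4, 5 and 7 were also called higher in cluster 2, whose cells are among the other cells here, so these calls are not separate results. Observed over expected, region 2 was about as low in cluster 1 (0.137) as in cluster 3 (0.125). In cluster 1, regions 3, 4, 5 and 7 were at 1.03, 0.800, 0.550 and 0.734, and in cluster 3 at 0.259, 0, 0.223 and 0.223. Cdh2 region 4, chr18:16861969-16862576, was open in 0 cells of cluster 3, which allows a share of up to 2.91% at 3 counts and up to 3.52% by the exact interval, and in 32 other cells (10.3%). The exact upper limit in cluster 3 is 0.480 times the share expected from depth, and the other cells had 1.31 times the expected share. Region 3 was open in 4 cluster 3 cells (3.88%) and 61 other cells (19.6%), a ratio of 0.210. Regions 5 and 7 were each open in 2 cells of cluster 3 and in 36 other cells.

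Cdh2 regions 1, 6, 8 and 9 were called in no cluster. The wide region 9 was open in 25.2% of cluster 3 and 42.1% of other cells, a ratio of 0.615. In cluster 2 it was open in 47.7%, with 34.5% in other cells, a ratio of 1.05 after scaling for depth. Region 6, which lies between the called regions 5 and 7, had ratios of 1.04 in cluster 2 and 1.48 in cluster 3. The observed over expected intervals of region 6 overlapped those of regions 5 and 7 in clusters 2 and 3. Unlike patterns of these neighbours are therefore not established. Regions 2 and 3, also neighbours, had separate intervals in cluster 1 (0.0166 to 0.488 and 0.705 to 1.43).

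**Figure D2:**
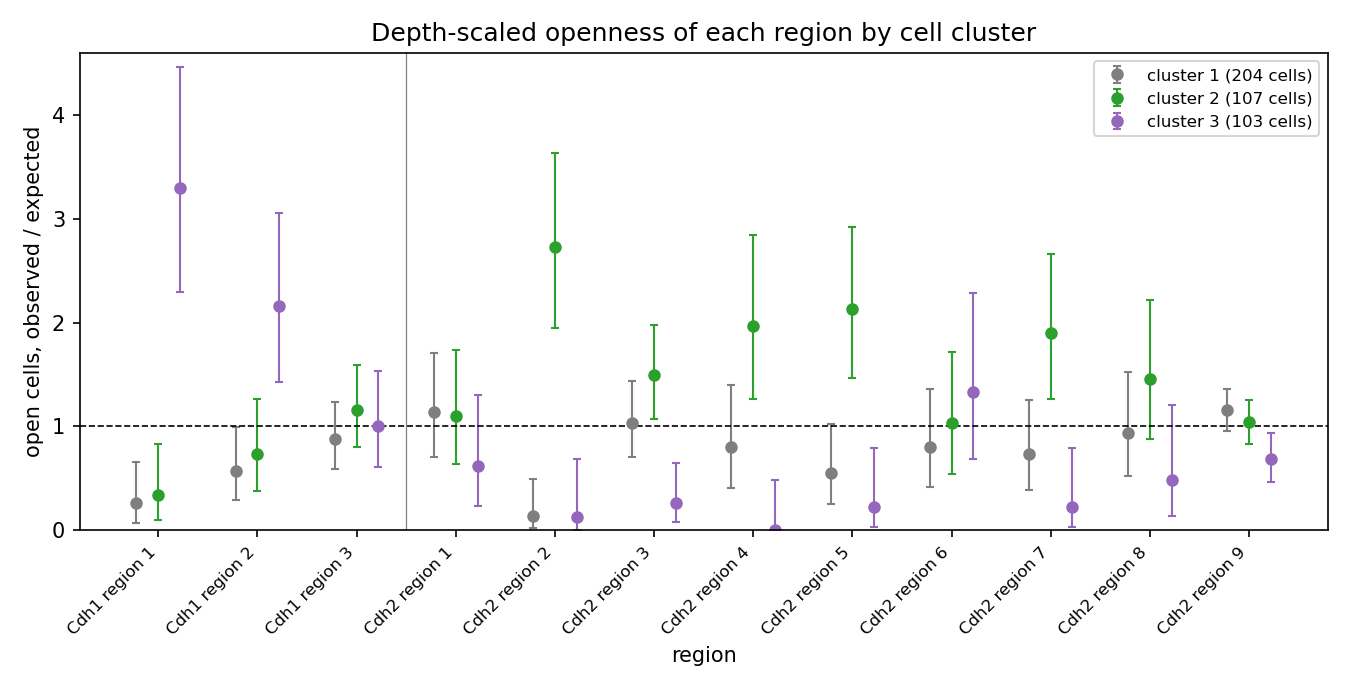
Open cells observed over expected from depth (vertical axis, linear) for each of the 12 regions in clusters 1, 2 and 3, with exact 95% intervals scaled in the same way and a dashed line at 1. Cluster 3 is high at Cdh1 regions 1 and 2 and low at Cdh2 regions 2, 3, 4, 5 and 7, while cluster 2 is highest at Cdh2 regions 2, 4, 5 and 7.

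Over whole loci, the openings summed over the 3 Cdh1 regions were 68 in cluster 3, where 36.05 were expected (1.89 times). They were 42 of 65.7 expected (0.640) in cluster 1 and 42 of 50.2 (0.836) in cluster 2. The 9 Cdh2 regions gave the reverse order of clusters 2 and 3, with 230 openings of 154.9 expected (1.48) in cluster 2, 0.915 times the expected number in cluster 1 and 56 of 113.4 (0.494) in cluster 3. As shares of cells, at least 1 Cdh1 region was open in 51.5% of cluster 3 and 24.4% of other cells, and at least 1 Cdh2 region in 41.7% of cluster 3 and 69.1% of other cells. In cluster 1 at least 1 Cdh2 region was open in 60.8% of the cells and in 63.8% of other cells, a depth-scaled ratio of 1.11, on the other side of 1 from its summed openings. In cluster 2 at least 1 Cdh2 region was open in 85.05% of the cells and in 54.4% of other cells. After thinning, the Cdh2 shares were 46.2% in cluster 2 and 26.8% in other cells, and 11.9% in cluster 3 and 39.5% in other cells. The Cdh1 share in cluster 3 was then 21.8%, with 7.83% in other cells. Cdh1 regions 1 and 2 reach 31 open cells, the fewest of any region, only through cluster 3. Cdh2 regions 2, 4, 5 and 7 reach that number only through cluster 2. The locus values by cluster are therefore a description. Cdh1 region 3, open in 54 cells outside cluster 3, had a ratio of 1.01 for that cluster.

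Whether the loci opened in different cells was read from cells in which both had an open region. There were 80 such cells, where 93.4 were expected if the loci were independent at the depth of each cell, a ratio of 0.856 (counting interval 0.679 to 1.07). That interval includes 1. With more than 1 fragment required the ratio was 0.521, from 7 cells (interval 0.210 to 1.07), and after thinning it was 0.565, from 8 cells (interval 0.244 to 1.11). Cdh1 alone was open in 49 cells, with 35.6 expected, a ratio of 1.38 (interval 1.02 to 1.82). The fitted rates match the total of each locus, so every class of cells departs from expectation by the same number. The ratio for Cdh1 alone is thus the same departure over a smaller expected number, not a separate result. Cdh2 alone was open in 42.9% of all cells, with 39.7% expected, and neither in 26.02%, with 29.3% expected. Cdh2 was open in 62.02% of the cells with Cdh1 open and in 62.2% of those with Cdh1 closed, but the first were deeper, with a median of 4859 open regions against 3402. From depth, 70.7% and 58.3% were expected.

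With single regions left out in turn, the co-opening ratio was lowest without Cdh1 region 3. Then 38 cells had both loci open where 55.1 were expected, a ratio of 0.689 (own interval 0.488 to 0.946, below 1). This value stayed inside the interval of the full ratio, 0.679 to 1.07. It rests on Cdh1 regions 1 and 2, which reach 31 open cells, the fewest of any region, only through cluster 3. Cdh2 regions 2, 4, 5 and 7 reach that number only through cluster 2, so the low ratio is a description. Leaving out any other single region gave ratios of 0.832 to 0.931, and all of those intervals included 1. Among the 36 cells with Cdh1 region 1 open, 17 had Cdh2 open (47.2%), where 68.2% was expected. Among the 45 with region 2 open, 24 had Cdh2 open (53.3%), where 69.98% was expected. Among the 71 with region 3 open, 52 did (73.2%), where 75.3% was expected. Openings over the 9 Cdh2 regions were 24 of 46.8 expected (0.513) in cells with region 1 open, 53 of 62.9 (0.843) with region 2 open and 0.976 times the expected number with region 3 open.

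With rates fitted within each cluster, the 80 cells with both loci open gave a ratio of 0.920, nearer to 1 than 0.856. Some alternatives without clusters moved the same way. The ratio was 0.902 with cells divided into 10 classes of depth and 0.937 in cells no shallower than the median cell. All 3 lie inside the interval of 0.679 to 1.07. Others moved away from 1 and left that interval, to 0.521 with more than 1 fragment required and 0.565 after thinning. Whether the shift within clusters comes from the clusters was not tested. Taken alone, cluster 3 had 21 such cells with 24.7 expected (0.850, interval 0.526 to 1.30), cluster 2 had 33 with 33.8 expected (0.975, 0.671 to 1.37) and cluster 1 had 26 with 28.4 expected (0.916, 0.599 to 1.34). All 3 intervals include 1, so co-opening within a cluster was not distinguishable from independence. E-cadherin and N-cadherin loci were both open in some cells of every cluster.

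Pair by pair, 19 of the 27 combinations of a Cdh1 and a Cdh2 region were open together in fewer cells than expected, and the median ratio was 0.722. Over all 931879 pairs of a chromosome 8 and a chromosome 18 region the median was 0.996. In 7 of the 27 pairs at most 0.5 of the expected cells were observed, where 4.17% of all such pairs were as low. The cadherin pairs had fewer expected cells, a median of 6.21 against 12.7, and ratios of small counts scatter more. Among the 19 pairs with at least 5 expected cells, 1 was as low, or 5.26%, where 3.002% of all pairs with at least 5 expected cells were. None of the 19 reached 2-fold over expectation, where 0.272% of all pairs did.

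The lowest ratio among those 19 was that of Cdh1 region 1 with Cdh2 region 3. They were open together in 1 cell where 7.79 were expected (0.128, interval 0.00325 to 0.715). Next was Cdh1 region 2 with Cdh2 region 5, with 3 cells of 5.76 expected (0.521, interval 0.107 to 1.52). The highest were Cdh1 region 2 with Cdh2 region 2, with 7 cells of 5.17 expected (1.35, interval 0.544 to 2.79), and Cdh1 region 3 with Cdh2 region 7, with 11 of 8.94 (1.23, interval 0.614 to 2.20). Of the pairs named here, only Cdh1 region 1 with Cdh2 region 3 had an interval that excluded 1, and it was picked as the lowest of the 19. The 18 pairs of Cdh1 regions 1 and 2 summed to 77 cells of 126.4 expected (0.609), and the 9 pairs of Cdh1 region 3 to 0.992 times the expected number. Because Cdh1 regions 1 and 2 reach the fewest open cells of any region, 31, only through cluster 3, their sum is a description.

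**Figure D3:**
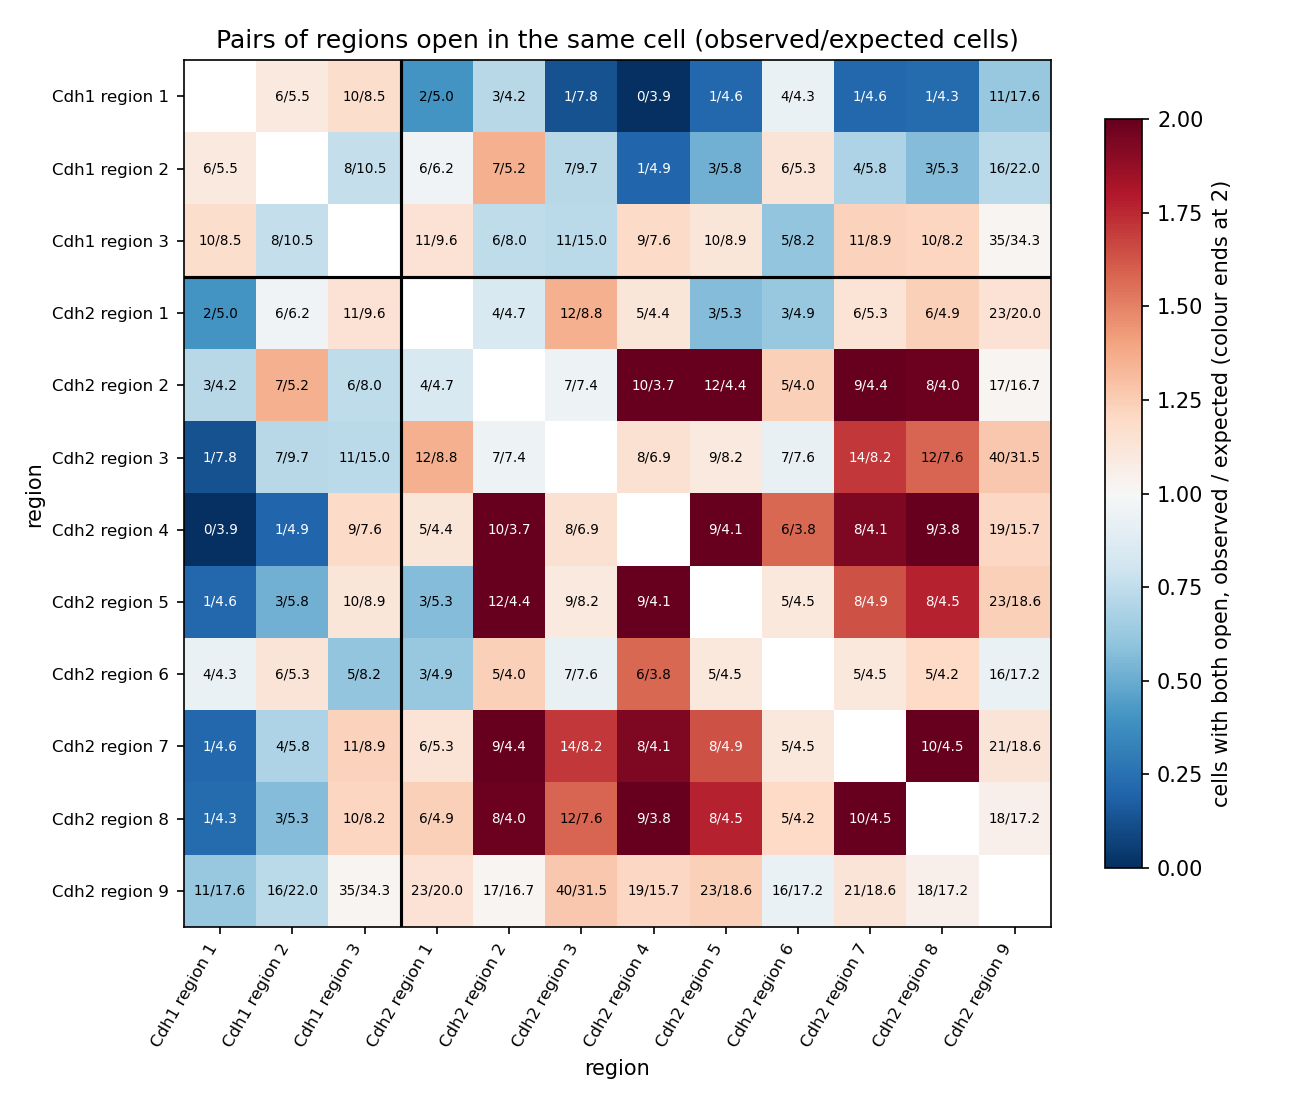
Cells in which both regions of a pair were open, printed as observed/expected numbers and coloured by their ratio (white at 1, colour scale ending at 2), for all pairs of the 3 Cdh1 and 9 Cdh2 regions, with lines between the loci. Pairs of Cdh1 region 1 with Cdh2 regions are mostly below 1, with 1 cell of 7.79 expected at Cdh2 region 3, and pairs among Cdh2 regions 2, 4, 5, 7 and 8 are above 1.

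Before thinning, regions within the Cdh2 window tended to open in the same cells. The 36 pairs summed to 390 cells with both regions open, where 303.1 were expected, a ratio of 1.29, and 30 of the pairs were above 1. At least 2-fold more cells than expected were seen for 6 of the 36 pairs, where 1.12% of the 105423 pairs within 250 kb of each other on 1 chromosome reached that ratio. All 6 had from 3.71 to 4.51 expected cells. Of the 17 pairs with at least 5 expected cells 0 reached 2-fold, where 0.719% of the pairs within 250 kb with as many expected cells did. Summed over all pairs within 250 kb the ratio was 1.05. The 6 pairs joined regions 2, 4, 5, 7 and 8. The highest was regions 2 and 5, open together in 12 cells with 4.39 expected (2.74, interval 1.41 to 4.78), across 42.9 kb. Regions 2 and 4 followed with 10 cells of 3.71 expected (2.70, interval 1.29 to 4.96). Regions 2, 4, 5 and 7 reach 31 open cells, the fewest of any region, only through cluster 2. Their opening in the same cells is therefore a description.

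Distance did not order these ratios. Regions 8 and 9, which are 635 bp apart, were open together in 18 cells with 17.2 expected (1.05, interval 0.622 to 1.66). Regions 2 and 7, which are 103.6 kb apart, were open together in 9 cells with 4.39 expected (2.05, interval 0.938 to 3.90). With rates fitted within each cluster, the summed ratio over the 36 Cdh2 pairs was 1.04. Thinning, without clusters, also gave 1.04, from 23 cells with 22.2 expected (interval 0.657 to 1.56). The 3 pairs of Cdh1 regions summed to 24 cells with 24.5 expected (0.980), with an interval of 0.628 to 1.46. After thinning the ratio was 1.61, from 3 cells (interval 0.333 to 4.72). Regions 1 and 2 were open together in 6 cells with 5.47 expected (1.10, interval 0.403 to 2.39).

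Cells with many open Cdh2 regions came mostly from cluster 2. At least 4 of the 9 regions were open in 27 cells, where 16.2 were expected (1.67, interval 1.10 to 2.43). Cluster 2 held 21 of those cells with 7.52 expected, cluster 1 held 6 with 5.73 expected, and cluster 3 held 0 with 2.94 expected. At the other end, no Cdh2 region was open in 60 cells of cluster 3, or 58.3% of them, with 34.5 cells expected. In cluster 2 that number was 16 cells (14.95%), with 27.6 expected, and in cluster 1 it was 80 (39.2%), with 79.5 expected. The distribution in cluster 1 thus stayed near that set by depth at 0 open regions, while clusters 2 and 3 departed from it on opposite sides. Of the regions counted, 2, 4, 5 and 7 reach 31 open cells, the fewest of any region, only through cluster 2. These departures are therefore a description.

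**Figure D4:**
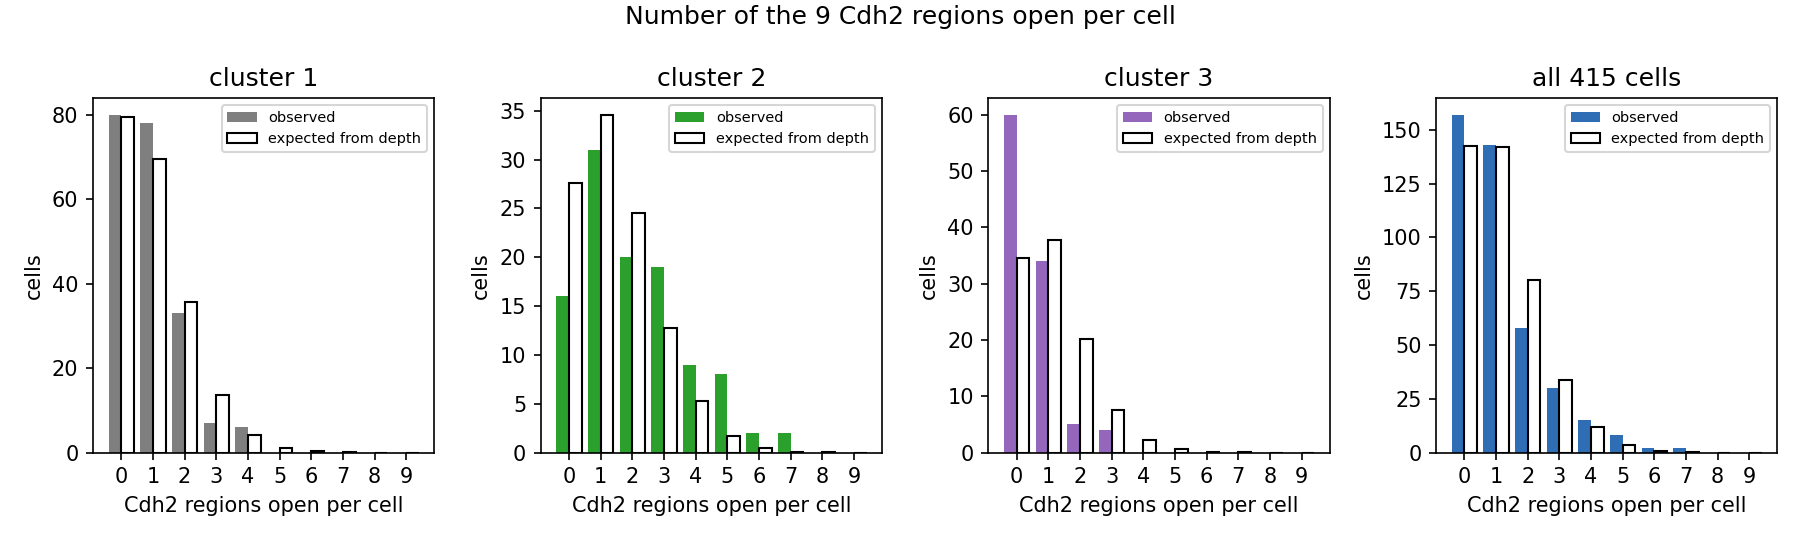
Number of the 9 Cdh2 regions open per cell (horizontal axis) against the number of cells (vertical axis), in clusters 1, 2 and 3 and in all cells; filled bars are observed and open bars are expected from depth and region frequency. Cluster 2 has more cells than expected at 3 or more open regions, and cluster 3 has 60 cells with none where 34.5 were expected.

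Regions elsewhere in the genome were ranked by how closely their depth-corrected values followed the summed values of each locus over all cells. The correlations are across cells of 1 series that share the fitted depth, and they are weak. For Cdh1, 90% of the 21178 regions off chromosomes 8 and 18 lay between -0.0981 and 0.126, and the highest was 0.390, at chr1:51565364-51567019. It was open in 46.6% of cluster 3, 7.48% of cluster 2 and 6.86% of cluster 1. The next were chr14:8784886-8785752 (0.344), chr4:137510935-137511338 (0.325), chr9:55112399-55113055 (0.319) and chr10:24522694-24523363 (0.304). All 5 were open in at least 2.79 times the expected number of cluster 3 cells.

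For Cdh2 the range was -0.109 to 0.131, and the highest was 0.326, at chr1:130301432-130302467. That region was open in 43.9% of cluster 2, 8.82% of cluster 1 and 1.94% of cluster 3. It was followed by chr11:32436925-32437340 (0.311), chr6:33688921-33689539 (0.301), chr3:103862968-103863593 (0.292) and chr14:118815275-118815841 (0.278). In cluster 2 these 5 were open in 1.76 to 2.18 times the expected number of cells, and in cluster 3 in 0 to 0.681 times. All were chosen for following the loci over these same cells, and some lie on the odd-numbered autosomes that defined the clusters, so their cluster values are a description only. The summed values of the Cdh1 and Cdh2 loci had a correlation of -0.147 with each other.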

How the data were processed

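Single-cell ATAC-seq was deposited as 1 table of whole-number signal for 23180 regions in 415 cells. The deposited signal is not a read count: 37.6% of values above 0 equal 148 and 51.1% are multiples of 74, the pattern of aligned bases summed over read pairs. MACS2 and mm9 are named in the submitters' processing notes, with no role. The aligner, the handling of duplicates and the way regions were chosen were not given in the sources used here. Columns were matched to samples by title.

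The members, lists and alternatives were chosen with earlier results of these data known. The openness of region r in cell c was modelled as 1 − exp(−rate r × rate c), with rates matching the observed row and column sums. For whole loci, 1 rate per locus was fitted to the cells with any open region. Clusters came from term frequency-inverse document frequency values (scaled by 10000, log-transformed), singular value components 2 to 10 and k-means with 3 clusters and 50 starts, over 414 cells, and held 204, 107 and 103 cells (clusters 1, 2 and 3). Thinning kept 382 cells. Called regions needed a 2-fold ratio and separate intervals (95%). Regions described in full were the 3 most widely open of each locus, those with the highest and lowest cluster ratio, the highest and lowest 2 pairs between loci with at least 5 expected cells, and the 5 regions most like each locus. No test was made, since there is 1 sample. The scripts were tested on simulated data. Other cadherin, catenin and transition genes need an annotation on mm9 and are not analysed here. Python 3.11.15, numpy 2.4.6, scipy 1.17.1 and scikit-learn 1.9.0 were used.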

Additional observations from a re-analysis of the deposited data

How the results depend on the processing

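With 1 sample, alternatives were judged by whether a value left its counting interval. Of 82 alternative values with such an interval, 54 stayed inside and 28 left it. Shares follow depth and the definition of open: the median share over the 12 regions, 9.16%, was 2.05% with more than 1 fragment required, 13.2% in the deeper cells and 2.75% after thinning. In the same order, cells with an open Cdh1 region were 7.71%, 41.3% and 11.5%, and with an open Cdh2 region 24.3%, 77.9% and 32.2%. Co-opening of the loci, 0.856, was 0.521 with more than 1 fragment and 0.565 after thinning, and 0.937 in the deeper cells. Summed co-opening within Cdh2, 1.29, was 1.53 with more than 1 fragment, 1.04 after thinning, 1.04 with rates fitted within clusters and 1.44 without Cdh2 region 9. Within Cdh1 it was 1.61 after thinning, against 0.980.

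The depth-scaled ratio of a cluster to other cells kept its side of 1 under all alternatives, except Cdh2 in cluster 1 (1.11), which was 0.978 with 4 clusters. With more than 1 fragment it was 0.394 for Cdh1 in cluster 1, 3.11 for Cdh1 in cluster 3, 1.59 for Cdh2 in cluster 2 and 0.328 for Cdh2 in cluster 3. Thinning gave 2.78 for Cdh1 in cluster 3, and 1.72 and 0.301 for Cdh2 in clusters 2 and 3. With 2 clusters, clusters 1 and 2 fell into 1 part, which gave 0.449 for Cdh1 and 1.64 for Cdh2. With 4, Cdh2 in cluster 2 was 1.17. Counts of called regions, which have no interval, were recomputed under 9 alternatives chosen after seeing the data, and 6 moved by over 1.5 times. With more than 1 fragment and after thinning, the 2 Cdh1 regions higher in cluster 3 became 1 and 1, the 4 Cdh2 regions higher in cluster 2 became 1 and 1, and the 5 Cdh2 regions lower in cluster 3 became 1 and 2. Both alternatives leave fewer open cells per region. Clusters from all autosomes but 8 and 18 gave 2, 4 and 4. No paired analysis was possible because there is 1 group.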

Other observations

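The labels number the cells in their titles without saying what the numbers stand for. In 4 consecutive sets of nearly the same size, at least 1 Cdh1 region was open in 25.96%, 37.5%, 30.8% and 30.1% of the cells, which is 0.875, 1.21, 0.956 and 0.959 times the number expected from depth. At least 1 Cdh2 region was open in 53.8%, 58.7%, 67.3% and 68.9%, or 0.896, 0.940, 1.06 and 1.10 times the expected number. Cells with both loci open were 0.798, 0.644, 0.965 and 1.02 times the number expected within each set, and all 4 counting intervals included 1.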
